A study of Mus musculus with 72 samples.

Results

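The genes described here are 40 genes for making ribosomes, chosen by name from the 49568 genes counted: subunits and initiation factors of RNA polymerase I, the small nucleolar ribonucleoproteins (snoRNPs) that modify ribosomal RNA, nucleolar proteins, processing factors of the small and large ribosomal subunits, and the transcription factor gene Myc. RNA polymerase I transcribes the long precursor of the ribosomal RNAs in the nucleolus, where Ubtf keeps the ribosomal DNA open and Rrn3 lets the polymerase start. The precursor is then modified by box C/D snoRNPs, which methylate it, and box H/ACA snoRNPs, which convert uridines to pseudouridines, and it is cut and folded into the subunits by large sets of assembly factors. Myc is known to raise transcription of many of these genes when cells grow, and in macrophages this programme follows growth signals such as M-CSF and serum.

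RNA was measured in macrophages grown for 6 days with M-CSF from bone marrow of male C57BL/6 mice aged 3 to 6 months, all of which carried Per2::Luc, a luciferase reporter in the clock gene Per2. All cultures received a serum shock, a short exposure to concentrated serum that aligns their circadian clocks, and no unshocked group was analysed here. Samples were taken every 2 h from 16 h to 62 h in 3 time courses, which gives 3 libraries at each of 24 times and 72 libraries in all. Whether each course had its own animal or culture is not stated in the labels. The spread behind the p-values of the window comparisons is therefore that between libraries of the same time, which may be technical. In the tests of a 24 h component, of differences between courses and of Polr1a against other genes, differences between times enter the spread too. Time in culture cannot be told apart from time after the shock.

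Libraries held 45309360 to 67839053 counts assigned to genes (median 55040063), and all 40 genes were among the 17903 with enough counts to test. The defining macrophage markers Adgre1, Csf1r and Cd68 were present in every library, at no less than 860, 1097 and 747 CPM (for markers, counts per 1000000 of the library's total; for the 40 genes and all other single genes, per 1000000 of the total after TMM scaling, which corrects for differences in composition between libraries). The mitochondrial share of the counts had medians of 6.79%, 8.63%, 10.6% and 12.2% in the windows 16 to 18 h, 26 to 30 h, 38 to 42 h and 58 to 62 h. The 8 neutrophil markers summed to 0.211 to 1.02 CPM at 26 to 30 h and to 1.45 to 3.31 CPM at 16 to 18 h, with Ly6g at 0 in 58 libraries and Mpo at 0 in 52. The part of either in the results was not tested.

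A total of 5 libraries stood apart: course 3 at 22 h and at 38 h, course 1 at 40 h and at 56 h, and course 2 at 60 h. The measure was the root mean square log2 deviation over genes from the median of the other libraries within 2 h, of all courses. In each of the 5 it was above 0.574, the median of all libraries plus 3 median absolute deviations, each scaled by R's default factor to the size of a standard deviation. The next highest values were 0.553 in course 3 at 30 h and 0.542 in course 1 at 62 h. In course 1 at 40 h, 38 of the 40 genes were above both other courses, and the count was 34 in course 1 at 56 h, 36 in course 2 at 60 h, 28 in course 3 at 22 h and 9 in course 3 at 38 h. The 8 stromal markers, collagens among them, summed to 16.1 CPM in course 1 at 40 h against 45.8 and 212 CPM in the other courses. They summed to 11.6 CPM in course 1 at 56 h against 107 and 130 CPM, to 2.50 CPM in course 2 at 60 h against 39.1 and 39.8 CPM, and to 357 CPM in course 3 at 22 h against 43.6 and 84.3 CPM. In course 3 at 38 h they summed to 11.1 CPM against 118 and 247 CPM. The 10 macrophage markers summed to 16738 CPM in course 1 at 40 h against 22312 and 27837 CPM in the other courses. They were below both other courses also in course 2 at 60 h (17203 against 21918 and 23521 CPM), course 1 at 56 h (19453 against 22454 and 23576 CPM) and course 3 at 38 h (22587 against 24729 and 26732 CPM), and not in course 3 at 22 h.

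The mast cell list of 3 markers was highest of all 72 libraries in 3 of these 5, those in which 34 to 38 of the 40 genes were above both other courses. It summed to 17.7 CPM in course 1 at 40 h against 0.837 and 0.938 CPM, to 12.9 CPM in course 1 at 56 h against 1.18 and 2.10 CPM, and to 29.4 CPM in course 2 at 60 h against 1.63 and 4.07 CPM. The 67 libraries that did not stand apart had 0.458 to 9.31 CPM. Nearly all of the excess was Kit, the receptor of stem cell factor, at 16.7, 11.2 and 27.8 CPM in these 3 libraries, while Cpa3, a mast cell protease, had 0.998, 1.67 and 1.59 CPM and the protease Mcpt4 was at 0 in all 3. Whether these differences have a part in the values of the 40 genes was not tested.

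The first comparison asks how the set moved from the first sampled hours to about a day after the shock. Of the 40 genes, 39 were lower at 26 to 30 h than at 16 to 18 h and 1, Polr1c, was higher, by edgeR's quasi-likelihood test with Benjamini-Hochberg adjustment over all genes at a threshold of 0.05. Among all genes tested, 26.7% were lower and 26.5% were higher. Over all 24 times, each of the 40 differed between times, as did 68.5% of all genes. The median change was -0.89 on the log2 scale for the 40 genes and 0.04 for all genes. For 36 of the genes every one of the 9 later libraries lay below every one of the 6 earlier ones, which held for 15.4% of all genes. The later libraries of Polr1c all lay above the earlier ones, as for 11.7% of all genes, and the windows of Polr1e, Ncl and Npm1 overlapped. In these bulk samples, fewer cells that express a gene and less RNA per cell cannot be told apart.

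Polr1a encodes the largest subunit of RNA polymerase I, which forms the active centre together with Polr1b, and lies at chr6:71909053-71984935 on the plus strand (GRCm38, GENCODE M21). Its level at 26 to 30 h had a lowest, median and highest value of 13.4, 15.5 and 18.6 CPM, against 30.6, 38.0 and 45.8 CPM at 16 to 18 h. The windows did not overlap, and the change was -1.26 ± 0.08 (log2, SE; adjusted p = 1.85e-18, edgeR). Polr1b, the second-largest subunit, had 8.88, 10.3 and 12.4 CPM at 26 to 30 h against 13.6, 17.3 and 18.6 CPM at 16 to 18 h. It too fell in windows that did not overlap, by a smaller amount (log2 -0.70 ± 0.09, edgeR adjusted p = 5.12e-09).

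Polr1c, a subunit that RNA polymerases I and III share, moved the other way. It had 20.9, 23.2 and 25.2 CPM at 26 to 30 h against 17.2, 18.0 and 20.4 CPM at 16 to 18 h, and rose by 0.32 ± 0.09 (edgeR adjusted p = 0.00179). Polr1e, a subunit of the polymerase's peripheral heterodimer, had 4.199, 5.16 and 6.42 CPM at 26 to 30 h against 6.02, 6.44 and 7.17 CPM at 16 to 18 h. Its windows overlapped, and its change of -0.36 ± 0.09 (adjusted p = 7.42e-04) lost its call when course 1 was left out. The factors that start transcription fell by less than Polr1a: Ubtf had 71.7, 78.9 and 86.9 CPM at 26 to 30 h against 90.4, 108 and 119 CPM at 16 to 18 h, a change of -0.43 ± 0.06. Rrn3 had 39.7, 44.0 and 49.6 CPM at 26 to 30 h against 56.8, 60.3 and 63.1 CPM at 16 to 18 h, a change of -0.43 ± 0.06. The windows of neither factor overlapped. Subunits of the same enzyme thus spanned a rise of 0.32 and a change of -1.26.

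**Figure D1:**
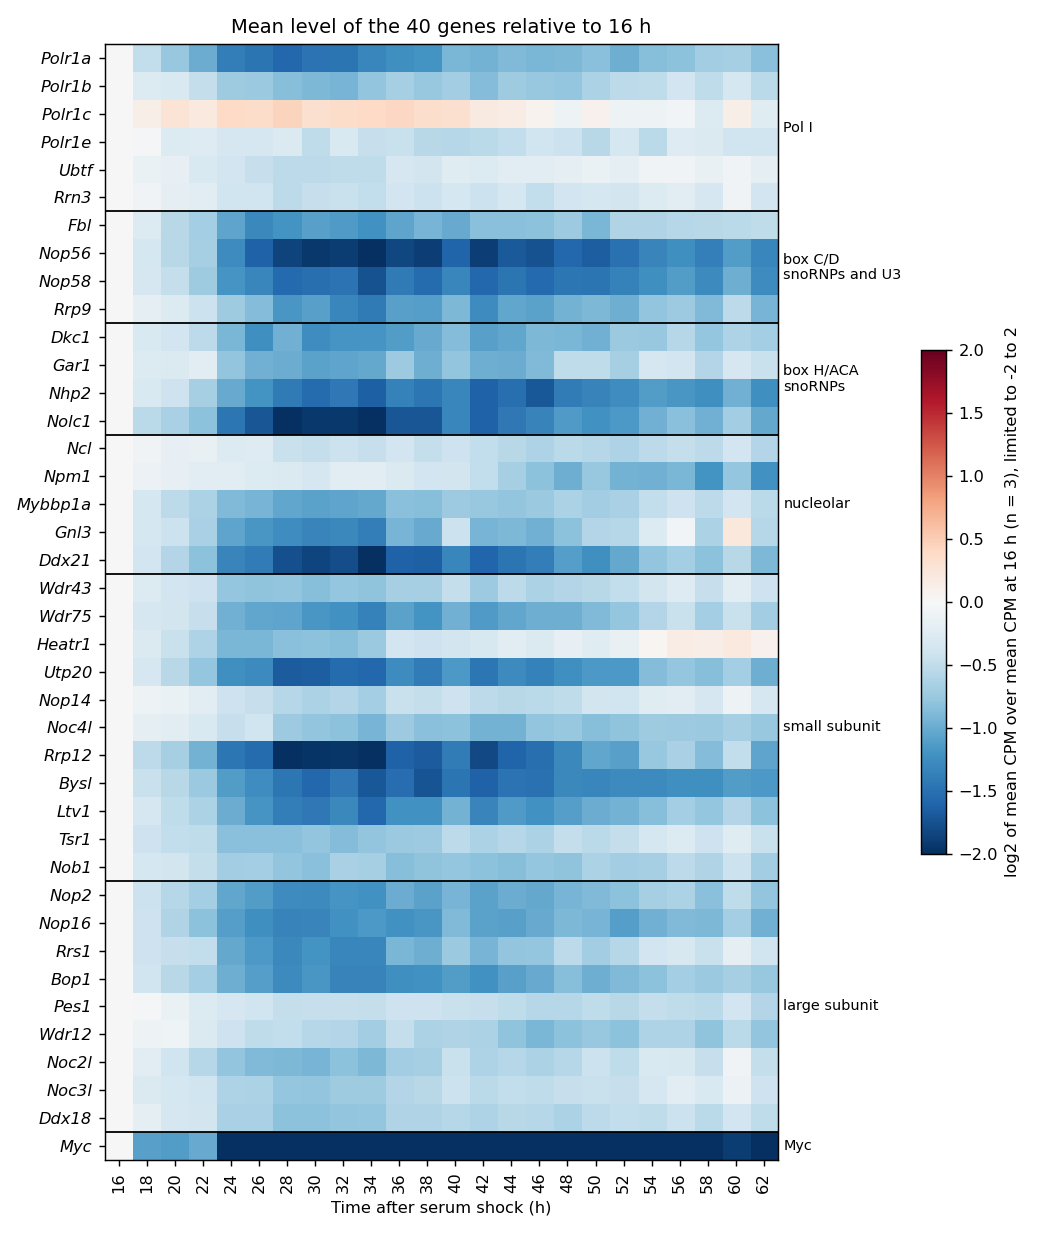
Each row is 1 of the 40 genes, grouped by role, and each column 1 of the 24 sampled times in hours after serum shock. Colour is the log2 ratio of the mean CPM of 3 libraries to the mean at 16 h, limited to -2 to 2. Nearly all rows turn blue by 24 h, 37 genes have their highest mean at 16 h, Polr1c is red in the middle of the course and Heatr1 is red at its end.

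All 8 snoRNP genes fell, with a median change of -1.17 in the box C/D and U3 group and -1.11 in the box H/ACA group, beside -0.43 for the 6 polymerase I genes. Nop56, a core protein of box C/D particles, had 12.3, 14.8 and 19.6 CPM at 26 to 30 h against 40.8, 47.9 and 60.4 CPM at 16 to 18 h (log2 -1.63 ± 0.13, edgeR adjusted p = 7.00e-16). Its partner Nop58 changed by -1.29 ± 0.13, Fbl, the methyltransferase of these particles, by -1.05 ± 0.11, and Rrp9, which binds the U3 RNA that guides the first cuts of the precursor, by -0.95 ± 0.12. Nolc1, a nucleolar chaperone of both kinds of particle, had 10.02, 13.8 and 16.6 CPM at 26 to 30 h against 31.6, 41.9 and 56.1 CPM at 16 to 18 h (log2 -1.61 ± 0.15, adjusted p = 1.94e-13). In both genes the highest late library was far below the lowest early one. Among the box H/ACA core proteins, Nhp2 changed by -1.24 ± 0.11, Dkc1, the pseudouridine synthase, by -0.98 ± 0.10 and Gar1 by -0.87 ± 0.19.

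The 5 nucleolar proteins of many functions all fell, and by unequal amounts. Ddx21, an RNA helicase of the nucleolus, had 25.0, 33.8 and 45.8 CPM at 26 to 30 h against 79.7, 98.3 and 120 CPM at 16 to 18 h (log2 -1.48 ± 0.15, edgeR adjusted p = 5.02e-12). Gnl3, a GTP-binding protein also called nucleostemin, changed by -1.06 ± 0.19 and Mybbp1a, a nucleolar protein that binds Myb, by -0.84 ± 0.08. The abundant histone and ribosome chaperone Npm1 had 260, 278 and 301 CPM at 26 to 30 h against 295, 331 and 361 CPM at 16 to 18 h. Its windows overlapped, the change was -0.24 ± 0.08 (adjusted p = 0.00979), and the call was lost without course 1. Ncl, nucleolin, changed by -0.36 ± 0.09 in overlapping windows. Per kilobase of exon, Npm1 was the most abundant of the 40 genes at a mean of 91.0 CPM per kb over all libraries and Myc the least at 0.424, while Polr1a and Polr1b stood at 1.96 and 2.10 CPM per kb.

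All 11 small subunit factors fell, with a median of -0.71. Rrp12, a factor that helps to export and mature the pre-40S particle, had 3.50, 5.08 and 6.67 CPM at 26 to 30 h against 11.1, 14.4 and 19.0 CPM at 16 to 18 h, a change of -1.58 ± 0.18 (edgeR adjusted p = 1.27e-10). Utp20, a large scaffold of the early small subunit processome, had 16.4, 19.4 and 25.1 CPM at 26 to 30 h against 44.7, 52.1 and 60.2 CPM at 16 to 18 h, a change of -1.37 ± 0.14. Neither gene's windows overlapped. Bysl and Ltv1, both assembly factors of the pre-40S particle, changed by -1.20 ± 0.10 and -1.16 ± 0.12. The processome proteins Wdr75, Heatr1, Wdr43 and Noc4l changed by -0.92 ± 0.13, -0.71 ± 0.11, -0.68 ± 0.09 and -0.55 ± 0.09. The late maturation factors Tsr1, a GTPase-like protein, and Nob1, the nuclease that makes the last cut of the small subunit RNA, changed by -0.61 ± 0.08 and -0.59 ± 0.10. Nop14, a partner of Noc4l in the processome, changed least in this group at -0.50 ± 0.09.

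All 9 large subunit factors fell, with a median of -0.79. Nop16, a nucleolar assembly factor, had 5.11, 6.13 and 7.62 CPM at 26 to 30 h against 10.7, 13.3 and 16.6 CPM at 16 to 18 h, a change of -1.09 ± 0.10 (edgeR adjusted p = 2.90e-13). Rrs1, which helps to bring the 5S RNA into the particle, had 9.36, 11.3 and 12.04 CPM at 26 to 30 h against 17.1, 22.1 and 27.8 CPM at 16 to 18 h, a change of -1.003 ± 0.13. Nop2, an RNA cytosine methyltransferase, changed by -1.001 ± 0.10. Bop1, Pes1 and Wdr12 form the PeBoW complex, and they changed by -0.98 ± 0.10, -0.43 ± 0.05 and -0.48 ± 0.11. Noc2l and Noc3l, partners in pre-60S transport, changed by -0.79 ± 0.10 and -0.59 ± 0.10, and the helicase Ddx18 by -0.67 ± 0.08.

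Myc had the lowest value of all 40 in this comparison. It had 0.247, 0.578 and 0.848 CPM at 26 to 30 h against 2.13, 4.37 and 7.10 CPM at 16 to 18 h, in windows that did not overlap (log2 -2.89 ± 0.35, edgeR adjusted p = 6.54e-10). Courses 1, 2 and 3 had 2.69, 2.13 and 3.50 CPM of Myc at 18 h against 5.27, 7.10 and 5.23 CPM at 16 h. Its level was thus already lower at the second sampled time, with a log2 ratio of the means of -1.09. The median of that ratio over the 39 genes called lower was -0.31, and the ratio was below 0 for all 39.

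The E-box CACGTG, a palindrome that is the same on both strands, is the preferred site of Myc with its partner Max and of the clock activators CLOCK and BMAL1. RefSeq promoter windows (GRCm38.p6), which run from 250 bases before the annotated start to 50 after it, were searched for 34 of the 40 genes. Fbl, Npm1, Rrp12, Rrs1, Bop1 and Myc were not searched. The 6 letters stood in a window of 8 of the 34 genes, which is 23.5%, against 11.1% of the 11562 tested genes with a window. A match is a description of the letters and does not show binding. The matches are given with up to 10 bases on either side, 5′ to 3′ on the gene's strand, with the motif in capitals and its position counted from the RefSeq start as 1, because these genes moved together. They are Rrn3 at -215 and -48 (chr16:13780474-13780499 and chr16:13780641-13780666), Mybbp1a at 41 (chr11:72441357-72441376), Wdr43 at 18 (chr17:71616222-71616247), Utp20 at 38 (chr10:88826765-88826787, minus strand), Ltv1 at 29 (chr10:13193094-13193119, minus strand), Tsr1 at 25 (chr11:74898094-74898119), Nop2 at -60 (chr6:125131813-125131838) and Pes1 at 3 (chr11:3963967-3963992), on the plus strand unless stated.
Rrn3, first: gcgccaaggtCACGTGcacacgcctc
Rrn3, second: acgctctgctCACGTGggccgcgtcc
Mybbp1a: cttctgagccCACGTGtttg
Wdr43: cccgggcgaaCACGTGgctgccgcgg
Utp20: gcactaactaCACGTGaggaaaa
Ltv1: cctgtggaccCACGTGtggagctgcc
Tsr1: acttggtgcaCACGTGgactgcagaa
Nop2: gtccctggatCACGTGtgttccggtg
Pes1: ctaggcagggCACGTGcgggaggaag

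The window of Polr1a, shown for its place in the results, did not hold these letters. The 100 bases before its start (chr6:71908953-71909052, plus strand) read as follows.
Polr1a: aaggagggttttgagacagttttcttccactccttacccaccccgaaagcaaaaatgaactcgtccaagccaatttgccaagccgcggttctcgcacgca
Genes with the motif spanned much of the range of falls, with -1.37 for Utp20 and -1.16 for Ltv1 against -0.43 for both Pes1 and Rrn3.

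The next comparison asks whether the set recovered near 40 h, 1 day after its high start. The mean log2 level of the 40 genes, taken relative to 16 h, was -0.30 ± 0.06 at 18 h and came to -0.85 ± 0.08 by 24 h, -1.09 ± 0.05 by 28 h and, at its lowest, -1.14 ± 0.04 by 34 h (SD over 3 courses). It was -0.88 ± 0.40 at 40 h and -1.005 ± 0.09 at 42 h. The courses did not move together at 40 h: course 1 stood at -0.42, while courses 2 and 3 stood at -1.03 and -1.18. At 22 h, in the same way, course 2 already stood at -1.12 while courses 1 and 3 stood at -0.36 and -0.27. Of the 40 genes, 27 had their lowest mean between 28 and 34 h.

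**Figure D2:**
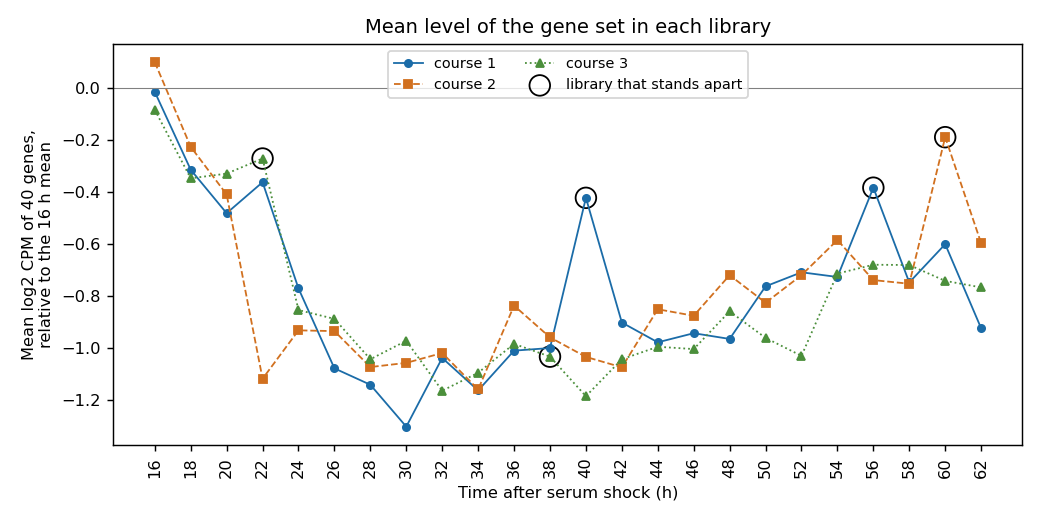
The y axis is the mean log2 CPM of the 40 genes relative to the mean at 16 h, the x axis the time after serum shock in hours, with 1 line for each of 3 courses and rings around the 5 libraries that stood apart. At 40 h course 1 stands at -0.42 while courses 2 and 3 stand at -1.03 and -1.18, and at 60 h course 2 stands at -0.19.

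At 38 to 42 h, 11 of the 40 genes were higher than at 26 to 30 h and 1, Noc4l, was lower (edgeR, adjusted p under 0.05). Among all genes 14.8% were higher and 14.5% lower, and the median change was 0.13 for the 40 genes and 0.02 for all genes. For 0 of the 40 were the windows apart, against 0.743% of all genes upward and 2.99% downward. The genes called higher were Heatr1, Polr1a, Gnl3, Rrs1, Noc2l, Fbl, Nop16, Mybbp1a, Noc3l, Ubtf and Tsr1, with changes of 0.19 to 0.49.

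Of these 11 calls, 6 were lost without the 40 h library of course 1. Without it 5 of the 40 genes were higher, against 15.5% of all genes, and 2 were lower, against 16.1%, and the median of the set was -0.01. Polr1a, Heatr1, Ubtf, Mybbp1a and Noc2l kept their calls, Fbl, Gnl3, Tsr1, Nop16, Rrs1 and Noc3l lost them, and Bysl was newly called lower. The changes of the 6 genes that lost their calls were smaller and still above 0: Fbl had 0.20 without the library and 0.27 with it, Tsr1 0.15 and 0.19, Noc3l 0.14 and 0.23, Nop16 0.17 and 0.26, Rrs1 0.21 and 0.33, and Gnl3 0.17 and 0.45. Without all 5 libraries that stood apart, 5 genes were higher, against 15.6% of all genes, and 3 lower, against 16.8%. Without course 1 as a whole, 1 gene was higher, Polr1a, against 11.4% of all genes, and 2 were lower, Noc4l and Bysl, against 12.2%. With library totals in place of TMM scaling 3 genes were higher and 4 lower. Over all genes 4966 were then called in place of 5234, and higher genes made up 23.9% of these calls in place of 50.5%.

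Gnl3 (chr14:31012433-31019152, minus strand) shows the weight of that library. Courses 1, 2 and 3 had 16.4, 20.1 and 17.7 CPM at 38 h. They had 50.8, 17.2 and 13.2 CPM at 40 h, and 21.7, 15.4 and 20.01 CPM at 42 h. Course 1 at 40 h was thus more than any other library near it, and above the 34.7 CPM of course 1 at 16 h. The change of Gnl3 was 0.45 ± 0.17 with this library (edgeR adjusted p = 0.0434) and 0.17 ± 0.15 without it (adjusted p = 0.425). Nop56 had 26.2 CPM in course 1 at 40 h against 14.9 and 12.5 CPM in courses 2 and 3, and its change between the windows was 0.01 ± 0.12.

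Heatr1 (chr13:12395027-12440289, plus strand), a processome protein that is also needed for transcription by RNA polymerase I, had the largest change. It had 37.8, 48.0 and 61.7 CPM at 38 to 42 h against 29.6, 35.4 and 41.0 CPM at 26 to 30 h. The windows overlapped, and the rise was 0.49 ± 0.10 (edgeR adjusted p = 8.44e-05), 0.44 ± 0.10 without course 1 at 40 h, and 0.34 ± 0.13 without course 1, where the call was lost (adjusted p = 0.0525). Polr1a had 15.8, 22.5 and 27.2 CPM at 38 to 42 h against 13.4, 15.5 and 18.6 CPM at 26 to 30 h. Its windows overlapped too, and its rise was 0.49 ± 0.07 (adjusted p = 6.51e-07), 0.45 ± 0.08 without course 1 at 40 h and 0.36 ± 0.10 without course 1 (adjusted p = 0.00904). Within the courses the rise of Polr1a was 0.77, 0.38 and 0.34, and that of Heatr1 0.80, 0.42 and 0.25. Ubtf rose by 0.21 ± 0.05, and within the courses by 0.40, 0.14 and 0.09. Noc4l, a processome protein, changed by a further -0.23 ± 0.08 (adjusted p = 0.026), with 0.02, -0.29 and -0.46 in the courses.

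The median of the set was above its 26 to 30 h level only with the 40 h library of course 1. Without that library 5 of the 40 genes were called higher, no greater a share than the 15.5% of all genes. The share of the fall regained was taken from window means of log2 CPM and not from the fitted changes. By this measure the 39 genes that fell had regained a median of 11.6% at 38 to 42 h, or -0.5% without course 1 at 40 h. The share was 67.6% for Heatr1, the highest, 48.4% for Ubtf, 39.4% for Noc2l and 38.7% for Polr1a, and it was below 0 for 14 of the 39, or for 20 without course 1 at 40 h. At 38 to 42 h, 38 of the 40 genes were still lower than at 16 to 18 h, against 30.3% of all genes, and Polr1c was still higher, against 32.1%. For 20 of them every later library was below every earlier one, as for 16.9% of all genes. For 0 of the 40 every later library was above, against 14.6%. Heatr1 was the 1 gene not called, at -0.22 ± 0.11 (edgeR adjusted p = 0.0773). Without course 1 at 40 h Heatr1 was called lower and the call of Polr1c was lost.

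**Figure D3:**
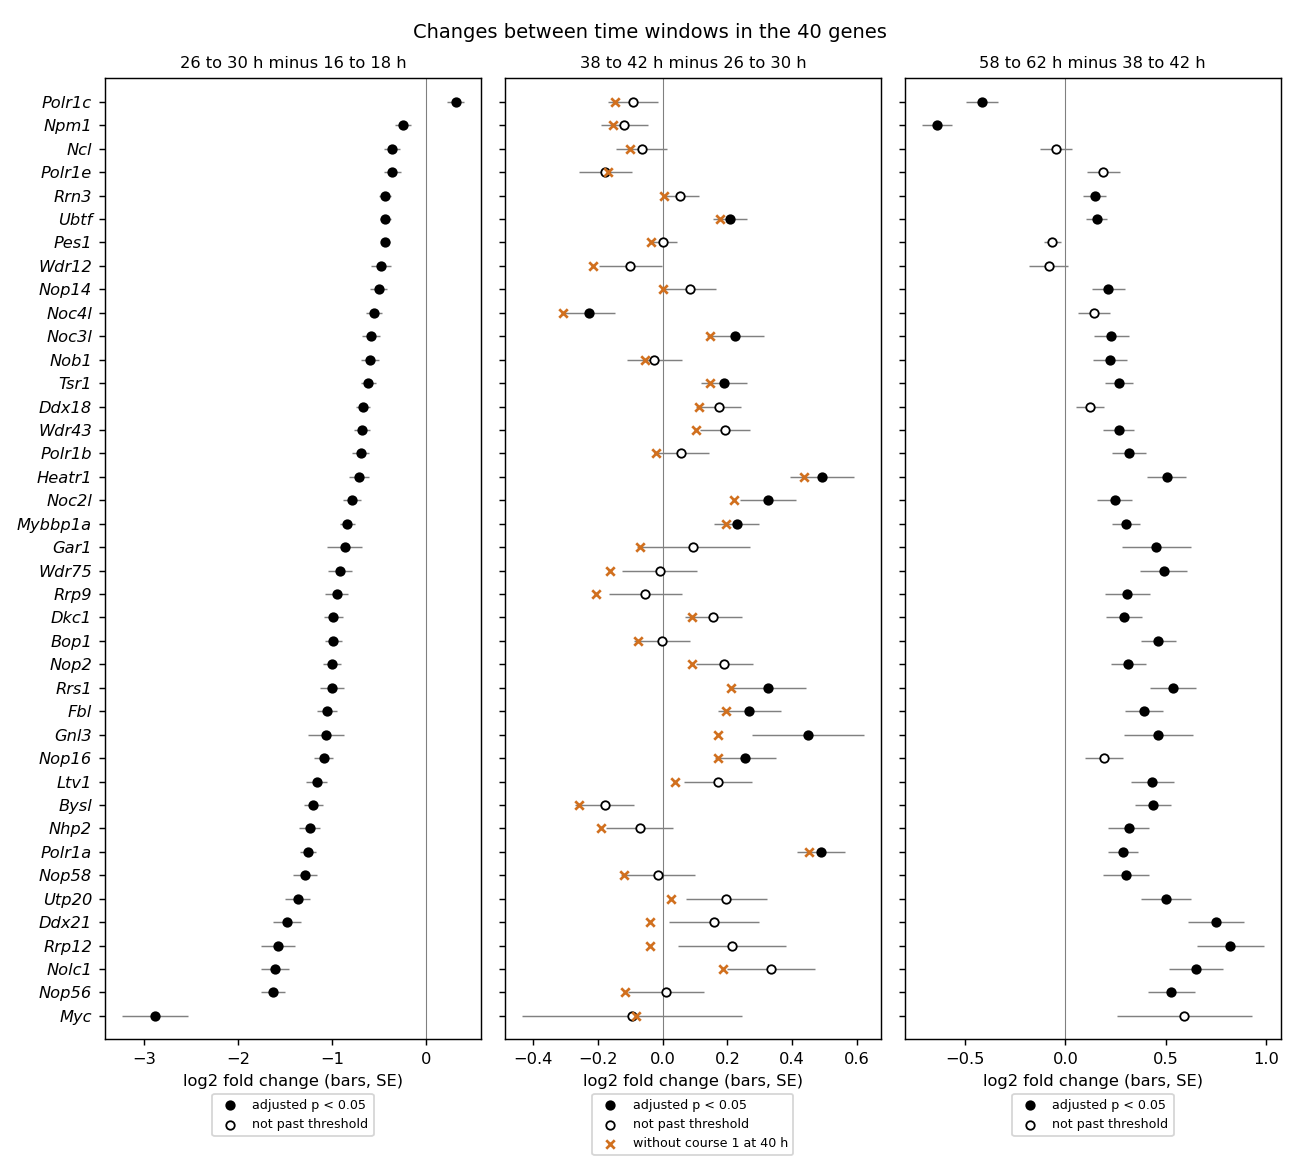
Each panel gives the log2 fold change of the 40 genes between 2 time windows, with SE bars, filled points for an adjusted p under 0.05 and open points otherwise; genes run from Polr1c (0.32) to Myc (-2.89) by the first panel. Crosses in the middle panel give the change without course 1 at 40 h, where the median of the set is -0.01 in place of 0.13.

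A later rise followed. At 58 to 62 h, 30 of the 40 genes were higher than at 38 to 42 h, against 13% of all genes, and Polr1c and Npm1 were lower, against 15.8% (edgeR). The median change was 0.30 for the set and -0.002 for all genes, and for 0 of the 40 were the windows apart, against 0.709% of all genes upward and 2.41% downward. The count of higher genes was 12 without course 2, against 9.93% of all genes, 14 without course 3, against 5.63%, and 30 without the 5 libraries that stood apart, against 15.4%. It was 1 when 62 h alone was set against 40 h alone. Rrp12 had 6.52, 10.2 and 15.5 CPM at 58 to 62 h against 3.78, 5.10 and 11.8 CPM at 38 to 42 h, a rise of 0.82 ± 0.17 (adjusted p = 1.06e-04). Ddx21 rose by 0.75 ± 0.14, Nolc1 by 0.65 ± 0.14, Rrs1 by 0.54 ± 0.12 and Nop56 by 0.53 ± 0.12. These 5 had early changes of -1.003 or below, but so did genes that rose less, such as Nop58 (0.30) and Nop16 (0.19, not called). Heatr1, with an early change of -0.71, rose by 0.50. Polr1a, with 0.29 ± 0.07, stood in the middle of the set here, at place 18 of 40 counted from the lowest. It lost its call without course 2.

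Npm1 (chr11:33152287-33163206, minus strand) and Polr1c (chr17:46243920-46248054, minus strand) went their own way. Npm1 had 132, 155 and 275 CPM at 58 to 62 h against 214, 256 and 302 CPM at 38 to 42 h, a change of -0.64 ± 0.07 (edgeR adjusted p = 8.37e-10). Polr1c had 12.6, 15.4 and 25.2 CPM at 58 to 62 h against 19.0, 20.0 and 26.8 CPM at 38 to 42 h, a change of -0.42 ± 0.08 (adjusted p = 3.65e-05). In both genes the highest late value was that of course 2 at 60 h, and the other late libraries reached at most 186 CPM for Npm1 and 17.3 CPM for Polr1c. Set against 16 to 18 h, Npm1 stood at -1.002 ± 0.08 at 58 to 62 h and Polr1c at -0.19 ± 0.09, which was not called (adjusted p = 0.0527).

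At the end of sampling 32 of the 40 genes were still lower at 58 to 62 h than at 16 to 18 h, against 31.6% of all genes, and Heatr1 was higher, against 34.3% (edgeR). The median of the set was -0.47, the 39 genes that fell had regained a median of 50.0%, and for 8 genes (Bysl, Dkc1, Nhp2, Noc4l, Nop56, Nop58, Npm1 and Pes1) every late library was below every early one, as for 16.5% of all genes. For 0 of the 40 every late library was above, against 14.6%. Heatr1 had 56.3, 70.0 and 81.7 CPM at 58 to 62 h against 49.7, 59.1 and 66.6 CPM at 16 to 18 h. Its windows overlapped and its rise of 0.29 ± 0.11 (adjusted p = 0.0204) lost its call without course 1, without course 3 and with library totals. Myc had 0.336, 0.560 and 3.44 CPM at 58 to 62 h against 2.13, 4.37 and 7.10 CPM at 16 to 18 h, a change of -2.39 ± 0.34. The 3.44 CPM was course 2 at 60 h, where the other courses had 0.560 and 0.729 CPM.

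**Figure D4:**
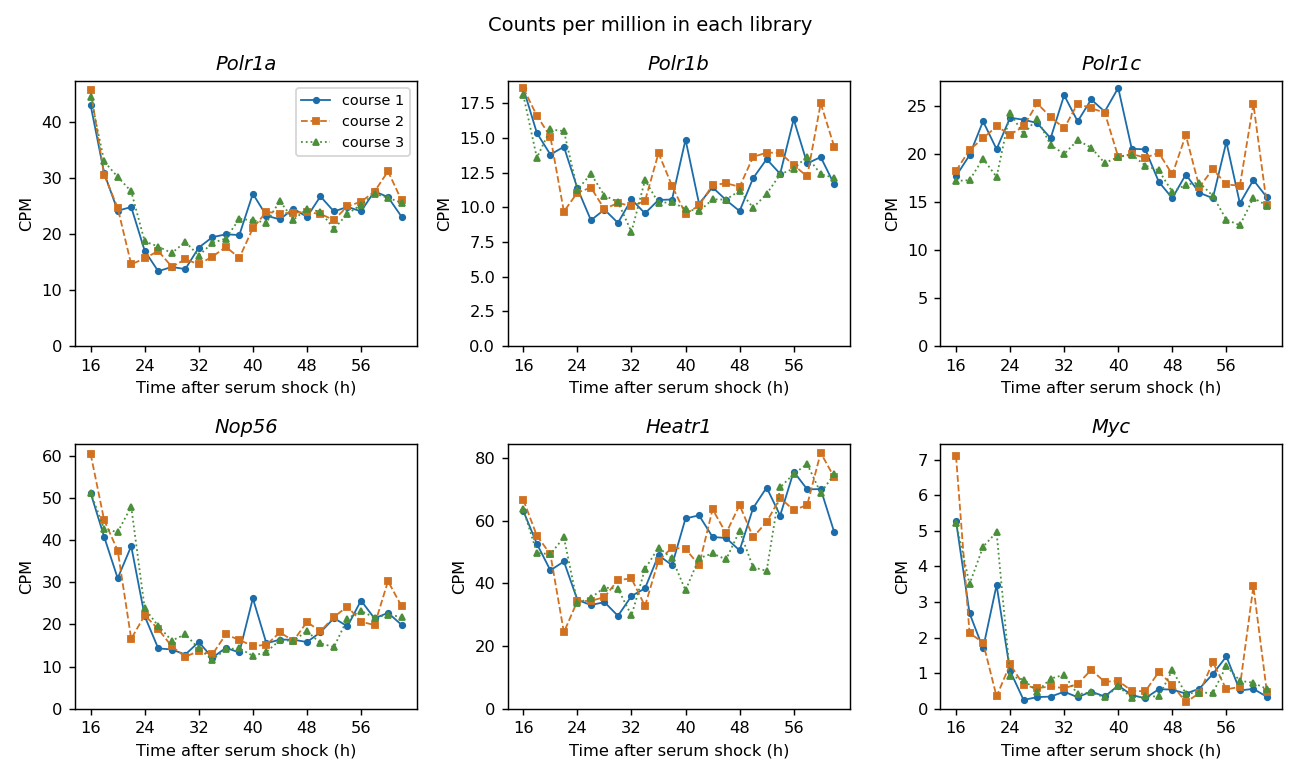
Each panel gives the CPM of 1 gene (y axis, from 0) against hours after serum shock, with 1 line for each of the 3 courses. Polr1a falls to 15.0 CPM on average at 28 h and returns to 23.6 CPM at 40 h, Polr1c rises in between, Heatr1 climbs to 73.5 CPM at 60 h, Nop56 is lowest at 34 h with 12.2 CPM and stands at 22.0 CPM at 62 h, and Myc stays at or below 1.58 CPM on average after 22 h.

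The comparison of Polr1a with the 39 other genes asks whether it stood out. The log2 ratio of Polr1a to each other gene was taken within each library, which removes nearly all of the scaling between libraries. The windows were compared by an exact two-sided permutation test that treats the libraries of both windows as exchangeable, adjusted over 78 tests. The 39 ratios share the Polr1a value of each library, so the counts of ratios below are not counts of independent results. Both comparisons also share the 9 libraries at 26 to 30 h. No other gene was tested in this way. Between 26 to 30 h and 16 to 18 h, Polr1a fell more than 28 of the 39 genes and less than 4, and 7 were not called. Its ratio fell against every other polymerase I gene, with changes of -0.57 against Polr1b, -0.83 against both Ubtf and Rrn3, -0.91 against Polr1e and -1.58 against Polr1c, each with an exact permutation p of 0.0002, the smallest that 5005 arrangements allow, and an adjusted p of 0.000617. The ratio rose against Nop56 (0.37), Nolc1 (0.35), Rrp12 (0.33) and Myc (1.61). The genes not called were Fbl, Nop58, Nhp2, Ddx21, Utp20, Bysl and Ltv1. By its own early change Polr1a was the eighth lowest of the 40.

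Between 38 to 42 h and 26 to 30 h, the ratio of Polr1a rose against 32 of the 39 genes, fell against 0 and was not called for 7, again by the exact permutation test. The 32 called ratios had the same sign in each of the 3 courses, as did the 32 of the early comparison. The calls were made on these same libraries, so the likeness of sign is not separate support for them. The median ratio change over the 39 genes was 0.42, with a range of 0.005 for Heatr1 to 0.72 for Noc4l. Against Polr1b the ratio rose by 0.44, with 0.41, 0.38 and 0.51 in the courses (exact permutation p = 0.00107, adjusted p = 0.0022). It rose by 0.28 against Ubtf (exact permutation adjusted p = 0.00902) and by 0.26 against Mybbp1a (adjusted p = 0.0053). For Heatr1 the ratio differed by 0.005, with -0.03, -0.05 and 0.10 in the courses (exact permutation p = 0.96). The others not called were Fbl, Nolc1, Gnl3, Rrp12, Rrs1 and Myc, whose ratio changes were 0.13 to 0.53. Without the libraries that stood apart the ratio rose against 34 genes, and without each course in turn against 22 to 28.

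**Figure D5:**
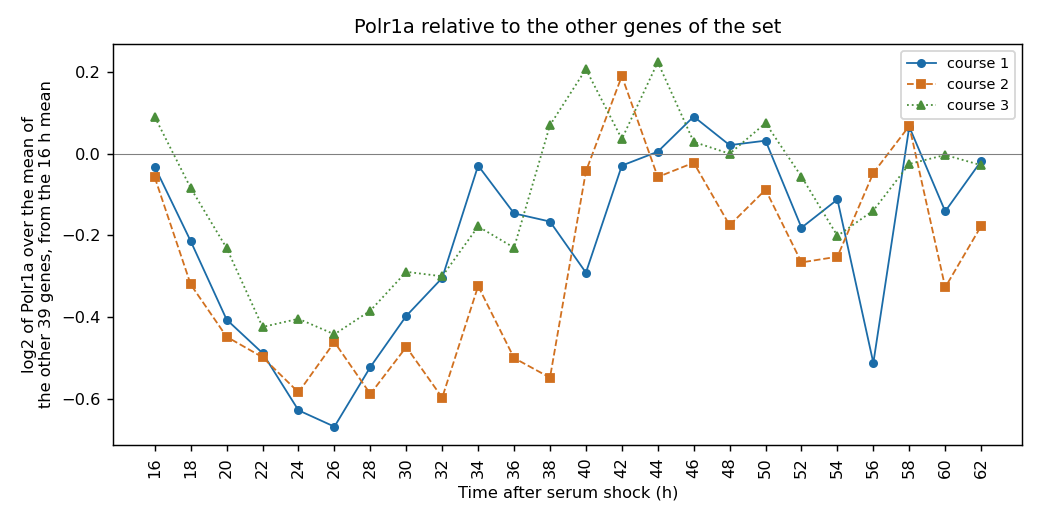
The y axis is the log2 ratio of Polr1a to the mean of the 39 other genes, relative to its mean at 16 h, and the x axis the time after serum shock in hours, with 1 line per course. The mean of the 3 courses is lowest at 24 h with -0.54 and is back at 0.07 at 42 h.

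The log2 ratio of Polr1a to the mean of the 39 other genes, relative to 16 h, averaged -0.10, -0.47, -0.06 and -0.07 in the windows 16 to 18 h, 26 to 30 h, 38 to 42 h and 58 to 62 h. At 26 to 30 h the courses stood at -0.53, -0.51 and -0.37, and at 38 to 42 h at -0.16, -0.13 and 0.10. By hour, the ratio was lowest at 24 h with -0.54 ± 0.12, had come to -0.18 ± 0.15 by 34 h and to 0.07 ± 0.11 by 42 h (SD over 3 courses). The way between was uneven, with -0.292 ± 0.185 at 36 h and -0.215 ± 0.312 at 38 h. At 38 h the courses stood at -0.166, -0.548 and 0.07, so course 2 had not yet returned. The mean was lower again at 52, 54 and 56 h, with -0.168, -0.188 and -0.233. In CPM, Polr1a had 14.2, 14.2 and 16.6 in the courses at 28 h. It had 27.2, 21.1 and 22.5 at 40 h and 23.3, 24.0 and 22.1 at 42 h. At 40 and 42 h its return was thus seen in all 3 courses and not in course 1 alone.

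A 24 h component was tested with a cosine and a sine of time beside a drift term, in all 72 libraries. With a straight line as drift, 11 of the 40 genes were called against 7.57% of all genes (edgeR), with a quadratic 10 against 11.8%, and with a natural spline 7 against 2.82%. Polr1a, Heatr1, Mybbp1a and Nop16 were called with all 3, as were 1.69% of all genes. Polr1a had the lowest p of the 40 genes with each drift term. Its amplitude, the log2 distance from the middle to the peak of the fitted curve, was 0.31 with the line (edgeR adjusted p = 0.000561), 0.25 with the quadratic and 0.20 with the spline, and its fitted peak was at 17.08, 17.97 and 13.70 h, modulo 24 h. Sampling covered less than 2 cycles, and the early fall takes part in each fit. Without course 1, 2 or 3 the count was 1, 1 and 2 of the 40 genes, Polr1a each time, against 1.62%, 1.3% and 1.78% of all genes, shares that a count of 1 of 40 does not stand clear of.

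Over the 24 time means of log2 CPM, the members most like Polr1a were Mybbp1a (Pearson r = 0.949), Noc2l (0.935) and Noc3l (0.930), and the least like it were Polr1c (-0.653) and Npm1 (-0.207). Polr1b had 0.844. Among 9307 other genes with a mean of at least 5 CPM, those with the highest r were Gpr180 (0.948), Prkch, a protein kinase C (0.946), Hacd3, an enzyme of fatty acid elongation (0.943), Cdyl, a chromatin corepressor (0.942) and Plekhm3 (0.942). Their early changes were -0.47 to -0.72 and their changes to 38 to 42 h 0.18 to 0.27, both smaller than the -1.26 and 0.49 of Polr1a. These r describe 24 means that share 3 courses and the same libraries.

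Other genes of the pathway were taken from lists that do not hold the 40, and their counts stand beside 26.7% lower and 26.5% higher of all genes. Of 37 other small subunit factors tested, 31 were lower at 26 to 30 h than at 16 to 18 h and 2 higher (edgeR, median -0.47), with Pno1, a pre-40S factor, at -1.13 ± 0.13 and Nat10, the RNA cytidine acetyltransferase, at -1.004 ± 0.11. Of 40 other large subunit factors, 38 were lower and 1 higher (median -0.53), with the remodelling ATPase Mdn1 at -1.14 ± 0.14 and the assembly factor Mrto4 at -1.09 ± 0.14. Of 13 genes of the RNA exosome, which trims ribosomal RNA ends, 12 were lower and 0 higher, with Exosc2, a cap subunit, at -1.07 ± 0.10 and Dis3, its nuclease, at -1.05 ± 0.11. Of 8 other snoRNP genes, 6 were lower and 1 higher, with Nhp2l1, a core protein of box C/D particles, at -0.82 ± 0.07 and the assembly factor Nufip1 at -0.65 ± 0.07.

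The lists of the polymerases had shares nearer to those of all genes. Of 10 other genes of polymerase I transcription, 2 were lower (20%) and 2 higher (20%), with Ttf1, the termination factor, at 0.46 ± 0.05 and Cd3eap, a polymerase I subunit, at -0.34 ± 0.06. Polymerase III gave 5 lower (35.7%) and 3 higher (21.4%) of 14 genes, with the subunits Polr3d at -0.63 ± 0.12 and Polr3gl at 0.59 ± 0.10. Of 7 polymerase II subunits, 3 were lower (42.9%) and 1 higher (14.3%), with Polr2d at -0.42 ± 0.06 and Polr2a, the counterpart of Polr1a, at 0.41 ± 0.08. In level, Polr2a had 43.3, 52.5 and 63.9 CPM at 26 to 30 h against 31.5, 38.2 and 42.5 CPM at 16 to 18 h, in windows that did not overlap. Of 10 partners and relatives of Myc, 2 were lower and 5 higher. The Max partners Mxd4 and Mxd1, which act against Myc, rose by 1.79 ± 0.19 and 1.10 ± 0.10, while Mxd3, of the same family, changed by -0.35 ± 0.09 (edgeR adjusted p = 0.000603). Of 11 other genes known as Myc targets, 10 were lower and 0 higher (median -1.11), with Srm, spermidine synthase, at -2.02 ± 0.23 and Cad, an enzyme of pyrimidine synthesis, at -1.58 ± 0.12.

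A difference between courses in the early change or in the recovery was called for 0 of 17903 genes (0%) by edgeR's interaction test. Neighbouring times of a window served as the replicates of a course in it, so change over time within a window entered the spread. The count of 0 therefore does not show that the courses changed alike. At an unadjusted p under 0.05, the early change differed between courses for 1.75% of all genes and for 0 of the 40. The recovery differed at that level for 3.83% of all genes and for 18 of the 40, and for 2 of the 40, Fbl and Rrp12, without course 1 at 40 h. No other tool was run for this test.

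Counting limits some of these values. Whether the counting used strand is not stated in the sources used here, and 16 of the 40 genes share exon bases with a gene on the other strand in GENCODE M21, among them 185 bases of Polr1a with Gm26628, 155 of Heatr1 with Lgals8 and 1240 of Tsr1 with Srr. Reads from such pairs may be shared or left out. Nop56, Nop58, Ncl, Gnl3 and Wdr43 host 3 to 5 small nucleolar RNA genes each, and rRNA-depleted libraries also hold unspliced RNA.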

How the data were processed

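Per the labels' protocols, total RNA was depleted of ribosomal RNA and read in pairs (Illumina HiSeq). The values deposited by the authors are raw counts per gene symbol and library. DRAGEN, HTSeq and GRCm38 (mm10) are named in the submitters' processing notes, while their versions, the annotation release and the strand setting are not stated in these sources. The 5 closing lines of each table name no gene and were left out. They held 29.8% to 36.6% of all tallied reads as no feature and 19.5% to 33.0% as not unique. No 2 libraries were identical.

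The 17903 genes kept by filterByExpr were fitted with TMM scaling in edgeR 4.0.16 (quasi-likelihood F tests, R 4.3.3) with 24 time levels, and windows were compared as contrasts of their time means. The edgeR p-values were adjusted by Benjamini-Hochberg over all genes tested, except where they are named unadjusted. Those of the permutation test were adjusted over its 78 tests. CPM are counts per 1000000 of the TMM-scaled library size, except for cell type markers, where they are per 1000000 of the unscaled total, and log2 CPM used a prior count of 2. SE is the log2 change divided by the root of F. Samples were treated as independent, although times within a course follow each other. The fits were tested on simulated counts drawn independently for each library, without any likeness within a course. They recovered 53% of 1.5-fold and 63% of 2-fold early changes. Of 24 h components with amplitudes of 0.2 and 0.4 they recovered 54% and 72%. A fit with DESeq2 1.42.0, other scalings and filters, single time points, the course as a block and left-out libraries were alternatives, and those that leave out course 1 at 40 h were added after the data were seen. The 40 genes, the pathway lists, windows and tests were chosen with earlier results of these data known. Named are all polymerase I genes, Myc, the 2 largest and the smallest early changes of each other role group, genes that moved against their group, up to 2 genes per pathway list and the 5 genes most like Polr1a, and the other members are given in brief. The course number was not used to pair libraries in the main fit. After the time means were removed, 445 of 828 pairs of same-course libraries had a correlation above 0.1, with a median of 0.113. Yet 62 of 72 libraries correlated best with a library of their own course, so libraries of a course were not fully independent.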

Additional observations from a re-analysis of the deposited data

How the results depend on the processing

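The early change kept its direction for all 40 genes under all 10 alternatives, and 2 calls, Polr1e and Npm1, were lost without course 1 and with single time points. For the recovery, 11 genes were higher and 1 lower, and 5234 genes in all were called. The counts were 3 and 4 with library totals (4966 in all) and 7 and 0 with no filter on low counts (4266 in all). They were 5 and 3 without the libraries that stood apart (5909 in all) and 5 and 2 without course 1 at 40 h (5787 in all). With 40 h against 28 h alone they were 2 and 0 (1054 in all). Leaving out each replicate gave 1 to 13 higher, 0 to 2 lower and 3224 to 4259 genes in all. Polr1c lost its place above the start at 38 to 42 h (0 genes higher) with library totals, with no filter, without course 1 at 40 h and without replicate 1 (range 0 to 1). For the late change, single time points called 1787 genes in all and 1 higher member, with Rrn3 at -0.025, Rrp9 at -0.032 and Gnl3 at -0.15, against 0.15, 0.31 and 0.46 over windows; leaving out each replicate gave 12 to 33 higher and 2525 to 4535 genes in all. Heatr1 was not higher at the end (0 genes) with library totals, with single time points and without replicate 1 or 3 (range 0 to 1). For the rhythm, 4 members were called with library totals, 7 with the spline and 20 with DESeq2, against 11. Over all genes 1007 were called with library totals, 504 with the spline, 1707 with DESeq2 and 2104 with the quadratic, against 1356. Leaving out each replicate gave 1 to 2 members and 233 to 321 genes. Causes were not tested. Library totals moved the median of all genes by -0.107 in the comparison of 38 to 42 h with 16 to 18 h. With the replicate block 13 members were higher in the recovery and 12 rhythmic, 1618 genes in all were rhythmic, and it ended no call among the 40; 62 of 72 libraries correlated best with their own course. Depth limits Myc and Gar1, at means of 1.15 and 1.88 CPM.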
